A study of Mus musculus with 12 samples.

Results

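Aminoacyl-tRNA synthetases were followed as RNA in 4 populations sorted from mouse bone marrow along the path to the basophil. The set is 36 genes of the 14560 listed, taken by gene symbol: 20 for enzymes of the cytosol and 16, with symbols ending in 2, for enzymes of the mitochondrion. All 36 were listed, and all 36 passed the filter on low values. The sorted cells comprised DN-GMPs (granulocyte-monocyte progenitors sorted as c-Kit+ CD34+ CD16/32+ cells without lineage markers, Sca1, CDH1 or FceRIa), Pro-BMPs (the same gate with CDH1 and without FceRIa), Pre-BMPs (with FceRIa, labelled as without CDH1) and basophils (CD49b+ FceRIa+ cells without B220, CD4, CD8a, Ter119, Sca1 and c-Kit). CDH1 is E-cadherin, an adhesion protein which the series' title names as a mark of cells that commit early to becoming basophils or mast cells, and FceRIa is a chain of the high-affinity IgE receptor. All came from C57BL/6 mice. The labels name no transgene, deletion or treatment, and give no age. Each population had 3 libraries. Nothing in the labels ties a replicate number to a mouse, and p-values here reflect how far these libraries spread, part of which may be technical.

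A synthetase joins an amino acid to its tRNA, using ATP, and the charged tRNA is then carried to the ribosome by an elongation factor. Cytosolic and mitochondrial ribosomes draw on separate sets of charged tRNA, and for most amino acids a separate nuclear gene makes the enzyme of each compartment. Exceptions are Gars and Kars, whose products serve both compartments, and glutamine, for which mitochondria charge the tRNA with glutamate by Ears2 and convert it with an amidotransferase. Several cytosolic enzymes (Dars, Eprs, Iars, Kars, Lars, Mars, Qars and Rars) are held in the multisynthetase complex by the scaffold proteins Aimp1, Aimp2 and Eef1e1. Uncharged tRNA is read by the kinase GCN2 (gene Eif2ak4), which acts through the transcription factor ATF4, and many cytosolic synthetase genes are known targets of ATF4.

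Libraries held 29762981 to 42502405 reads on listed genes, and 38246380 or more in basophils. Levels below are in CPM, reads per 1000000 of the deposited scaled library size, and the lowest read count of a synthetase gene in a library was 113, for Mars2 in a basophil library. The gates were visible in the RNA: in DN-GMPs the 10 basophil markers summed to 89.8 to 120.3 CPM, in Pro-BMPs to 1052 to 1391, in Pre-BMPs to 5058 to 6136, and in basophils to 39935 to 45709, with Fcer1a, Cd200r3, Il4 and Cyp11a1 at 0 in all DN-GMP libraries. In DN-GMPs the 8 neutrophil progenitor markers summed to 19974 to 22982 CPM, in Pro-BMPs to 18934 to 21058, in Pre-BMPs to 5664 to 6867, and in basophils to 3349 to 4587. The 8 cycling markers, none at 0, summed in DN-GMPs to 2279 to 2441 CPM, in Pro-BMPs to 2140 to 2266, in Pre-BMPs to 2115 to 2321, and in basophils to 1834 to 2277. Between basophils and DN-GMPs 2 of them were higher (Mki67, Top2a) and 3 lower (Mcm2, Mcm5, Pcna). Over all genes in this comparison 23.2% were called higher and 23.2% lower, and 2 of 8 is close to that share. In the same comparison 1 of 8 monocyte and dendritic cell markers was called higher and 5 lower, 6 of 8 eosinophil markers higher and 0 lower, and 4 of 8 megakaryocyte and erythroid markers higher and 1 lower. Between basophils and Pre-BMPs, 13.9% of all genes were called higher and 16.5% lower. There 7 of 8 eosinophil markers were called lower. The 8 summed to 265 to 460.2 CPM in basophils and 2132 to 3638 CPM in Pre-BMPs. In that comparison the 4 measured of 8 mast cell markers were all called lower, with a sum of 10.6 to 30.4 CPM in basophils and 538 to 782 CPM in Pre-BMPs; one of the 4 is Kit, whose protein the basophil gate leaves out. Reads outside annotated features made up 11.2% to 12.6% in basophils and 6.65% to 7.77% in DN-GMPs, with the other 2 populations between 7.69% and 10.2%. The summed neutrophil markers and the share of reads outside features moved along the same order as the synthetases below. Single neutrophil markers did not all do so: between basophils and Pre-BMPs, 2 of the 8 were called higher and 4 lower. The part of these lists and of that share in the results was not tested. In sorted bulk samples, fewer cells of a type and less RNA per cell cannot be told apart. CPM here is relative to the scaled library size, and is neither an amount per cell nor a plain share of the reads. Basophil replicate 1 had 39471460 reads on listed genes and a scaled size of 43234876. DN-GMP replicate 1 had 35043564 and 47112849.

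Cytosolic synthetase RNA was lowest in basophils. Summed over the 20 cytosolic genes, it was 3238 ± 215 CPM in DN-GMPs, 3176 ± 97.1 in Pro-BMPs, 2556 ± 124 in Pre-BMPs, with 1557 ± 101 in basophils (mean ± SD, n = 3 each). Every basophil library (1461 to 1663 CPM) lay below every Pre-BMP library (2414 to 2639 CPM), and every Pre-BMP library lay below every Pro-BMP library (3078 to 3272 CPM). The mitochondrial sum was 1443 ± 169 CPM in DN-GMPs, 1124 ± 48.1 in Pro-BMPs, 893 ± 32.1 in Pre-BMPs, with 947 ± 153 in basophils. A large part of it was Lars2, the mitochondrial enzyme for leucine, at 828 ± 228 CPM in DN-GMPs, 465 ± 31.7 in Pro-BMPs, 349.8 ± 42.4 in Pre-BMPs, with 572 ± 116 in basophils. Without Lars2, the mitochondrial genes summed to 615 ± 61.3 CPM in DN-GMPs, 659 ± 18.98 in Pro-BMPs, 543 ± 34.8 in Pre-BMPs, with 375 ± 52.2 in basophils. A moderated F-test over the 4 populations (limma; adjusted p under 0.05 by Benjamini-Hochberg across the 14560 genes) called 25 of the 36 synthetase genes, 16 of 20 cytosolic and 9 of 16 mitochondrial, where 46.8% of all genes were called. The 11 not called were Qars, Sars, Vars and Wars among the cytosolic enzymes (adjusted p 0.0774 for Vars to 0.796 for Qars) and Aars2, Ears2, Fars2, Hars2, Iars2, Pars2 and Wars2 among the mitochondrial ones (adjusted p 0.114 for Iars2 to 0.428 for Fars2).

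**Figure D1:**
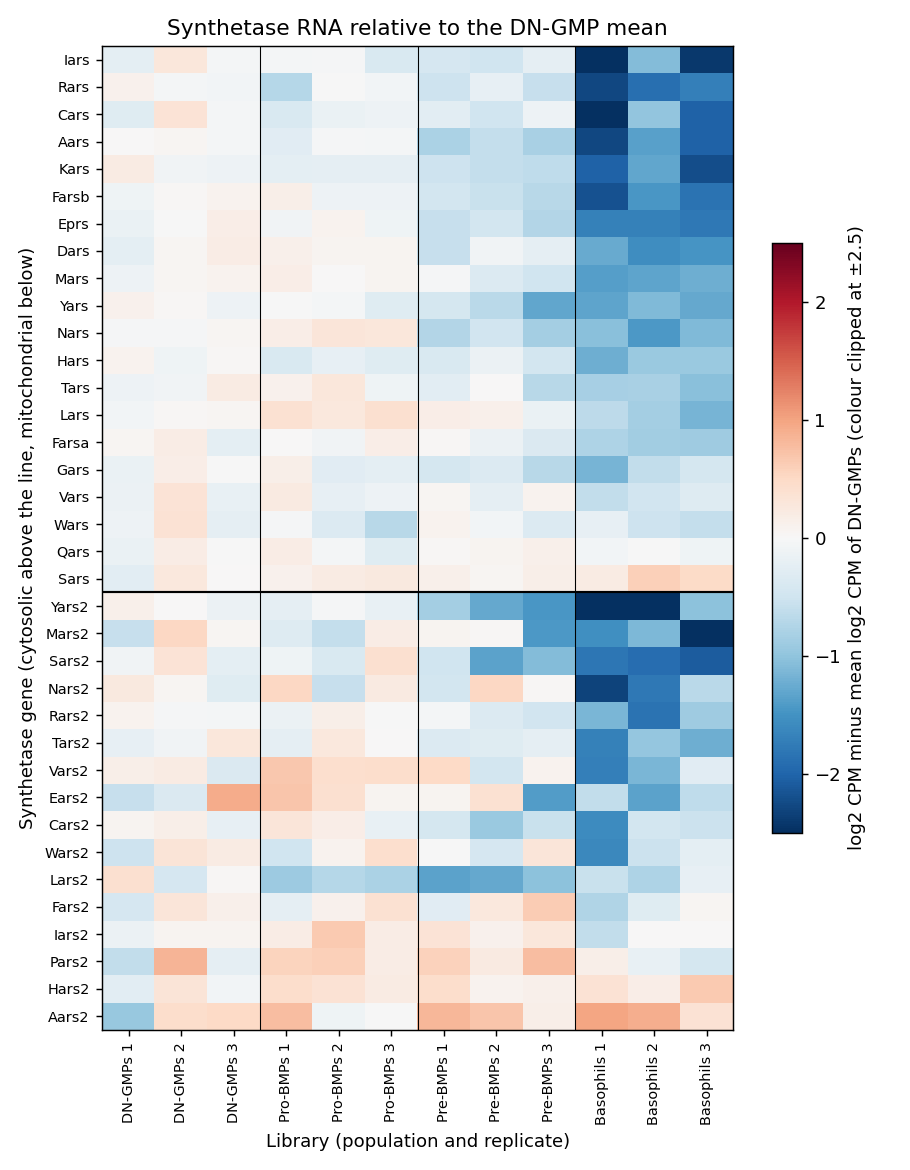
Each row is a synthetase gene and each column a library, with colour for log2 CPM minus the mean log2 CPM of the 3 DN-GMP libraries; blue is lower and red higher, and colour is clipped at ±2.5. The 3 basophil columns hold most of the dark blue, from Iars and Rars at the top to Yars2, Mars2 and Sars2 in the lower block, while Qars, Sars, Hars2 and Aars2 stay pale or red there.

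Promoter sequence is shown for 5 cytosolic genes because all of them had lower RNA in basophils than in DN-GMPs and all hold the motif TGATGNAA, the core of the amino acid response element that ATF4 binds together with C/EBP proteins. RefSeq promoter entries (GRCm38.p6, 250 bases before to 50 bases after the start site) were matched for 26 synthetase genes, 12 cytosolic and 14 mitochondrial. TGATGNAA, read on both strands, lay in 5 of them (Aars, Gars, Iars, Tars and Yars, all cytosolic), against 3.97% of all 32851 promoters. The E-box CACGTG, which Myc and related proteins bind and which reads the same on both strands, lay in 5 (Aars, Farsb, Iars, Tars and the mitochondrial Ears2), against 7.15% of all promoters. The ETS motif CCGGAAG lay in 8 (4 cytosolic and 4 mitochondrial), against 8.86%, and the cAMP element TGACGTCA in 0 of 26, against 1.79%. These motifs were chosen with the expression results known, and a match is only a run of letters. Lower RNA in basophils than in DN-GMPs does not set the genes with TGATGNAA apart, as 17 of 20 cytosolic genes were called lower. Capitals mark TGATGNAA or its reverse complement, and CACGTG where it occurs:
Aars (chr8:111033592-111033891, plus strand): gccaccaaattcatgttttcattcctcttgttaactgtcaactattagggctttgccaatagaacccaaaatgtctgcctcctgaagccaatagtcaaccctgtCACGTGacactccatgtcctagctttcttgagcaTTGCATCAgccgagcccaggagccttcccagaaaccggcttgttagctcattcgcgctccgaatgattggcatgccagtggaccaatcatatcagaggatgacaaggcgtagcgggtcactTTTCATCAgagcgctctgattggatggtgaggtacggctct
Gars (chr6:55037751-55038050, plus strand): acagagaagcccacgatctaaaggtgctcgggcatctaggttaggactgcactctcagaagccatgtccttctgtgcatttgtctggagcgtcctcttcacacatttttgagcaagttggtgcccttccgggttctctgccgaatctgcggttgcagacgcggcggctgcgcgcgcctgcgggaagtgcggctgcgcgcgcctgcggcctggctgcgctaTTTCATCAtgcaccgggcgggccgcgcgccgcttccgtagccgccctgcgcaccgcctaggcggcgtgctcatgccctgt
Iars (chr13:49681880-49682179, plus strand): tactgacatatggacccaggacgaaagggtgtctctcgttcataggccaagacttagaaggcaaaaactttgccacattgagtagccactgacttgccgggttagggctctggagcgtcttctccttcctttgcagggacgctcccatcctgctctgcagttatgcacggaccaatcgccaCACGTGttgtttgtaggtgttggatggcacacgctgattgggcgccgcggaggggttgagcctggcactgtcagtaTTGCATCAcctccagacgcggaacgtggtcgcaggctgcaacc
Tars (chr15:11399609-11399908, minus strand): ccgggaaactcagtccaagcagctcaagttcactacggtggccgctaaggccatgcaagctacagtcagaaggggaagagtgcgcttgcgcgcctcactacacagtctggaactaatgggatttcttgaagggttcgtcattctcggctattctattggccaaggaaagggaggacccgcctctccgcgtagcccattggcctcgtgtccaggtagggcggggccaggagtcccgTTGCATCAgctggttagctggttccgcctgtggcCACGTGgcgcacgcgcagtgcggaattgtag
Yars (chr4:129189653-129189952, plus strand): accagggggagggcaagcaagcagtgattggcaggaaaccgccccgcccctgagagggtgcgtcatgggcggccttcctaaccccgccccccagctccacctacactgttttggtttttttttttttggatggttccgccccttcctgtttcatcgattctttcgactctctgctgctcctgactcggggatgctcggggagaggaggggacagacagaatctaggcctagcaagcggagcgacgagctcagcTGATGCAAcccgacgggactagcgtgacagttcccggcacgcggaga
The first match to TGATGNAA began at 3 bases from the start site in Yars, 7 in Iars, -15 in Tars, -30 in Gars and -112 in Aars, with the start base counted as 0 and Aars holding 2 matches. It read forward in Yars and as the reverse complement in the other 4. No 2 capital runs overlap in these windows.

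Between Pro-BMPs and DN-GMPs, where E-cadherin comes to the surface, no synthetase gene passed the test in either direction. Over all genes in this comparison 2% were called higher and 0.536% lower. At an unadjusted p under 0.05, 1 gene was higher (Lars) and 2 lower (Hars and Lars2), and voom called 0 as well. The set was split evenly, with 18 of 36 changes below 0 and a median log2 change of 0.00059, against 0.021 over all genes. Lars2, named after its values were seen, came nearest to the threshold, with 432, 495 and 468 CPM in Pro-BMPs and 1059, 602 and 822 CPM in DN-GMPs. Its 3 Pro-BMP libraries lay below its 3 DN-GMP libraries, which spread widely, and the log2 change was -0.80 ± 0.19 (SE, adjusted p = 0.0532). Without DN-GMP replicate 2 or basophil replicate 3, Lars2 passed the test (adjusted p = 0.00868 and 0.0441).

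Between Pre-BMPs and Pro-BMPs, where FceRIa comes to the surface, 2 cytosolic synthetase genes fell and none rose. Over all genes 4.69% were called lower and 4.8% higher, so 2 of 36 called lower is close to that share. At an unadjusted p under 0.05, 0 were higher and 11 lower, and voom called 0 higher as well. Nars, the asparagine enzyme, had 140.0, 168 and 129 CPM in Pre-BMPs and 262, 288 and 282 CPM in Pro-BMPs. The libraries did not overlap, and Nars was 1.91-fold lower in Pre-BMPs (log2 change -0.94 ± 0.12, SE, limma adjusted p = 0.000813). Eprs, a bifunctional enzyme for glutamate and proline, had 202, 221 and 183 CPM in Pre-BMPs and 283, 321 and 281 CPM in Pro-BMPs, again without overlap, a 1.46-fold fall (log2 change -0.55 ± 0.11, adjusted p = 0.0077). Both calls held under all 20 alternative settings. The other 34 were not called, although 30 of the 36 changes were below 0, 17 of 20 cytosolic and 13 of 16 mitochondrial. The median change was -0.33 for cytosolic and -0.24 for mitochondrial genes, against 0.02 over all genes. Without Pre-BMP replicate 1, 5 synthetase genes were called lower, and without basophil replicate 1 or 2, which enter only through the shared spread, 5 and 4 were. With voom weights, with genes above 10 CPM only, or with the compared populations alone, 7 were.

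**Figure D2:**
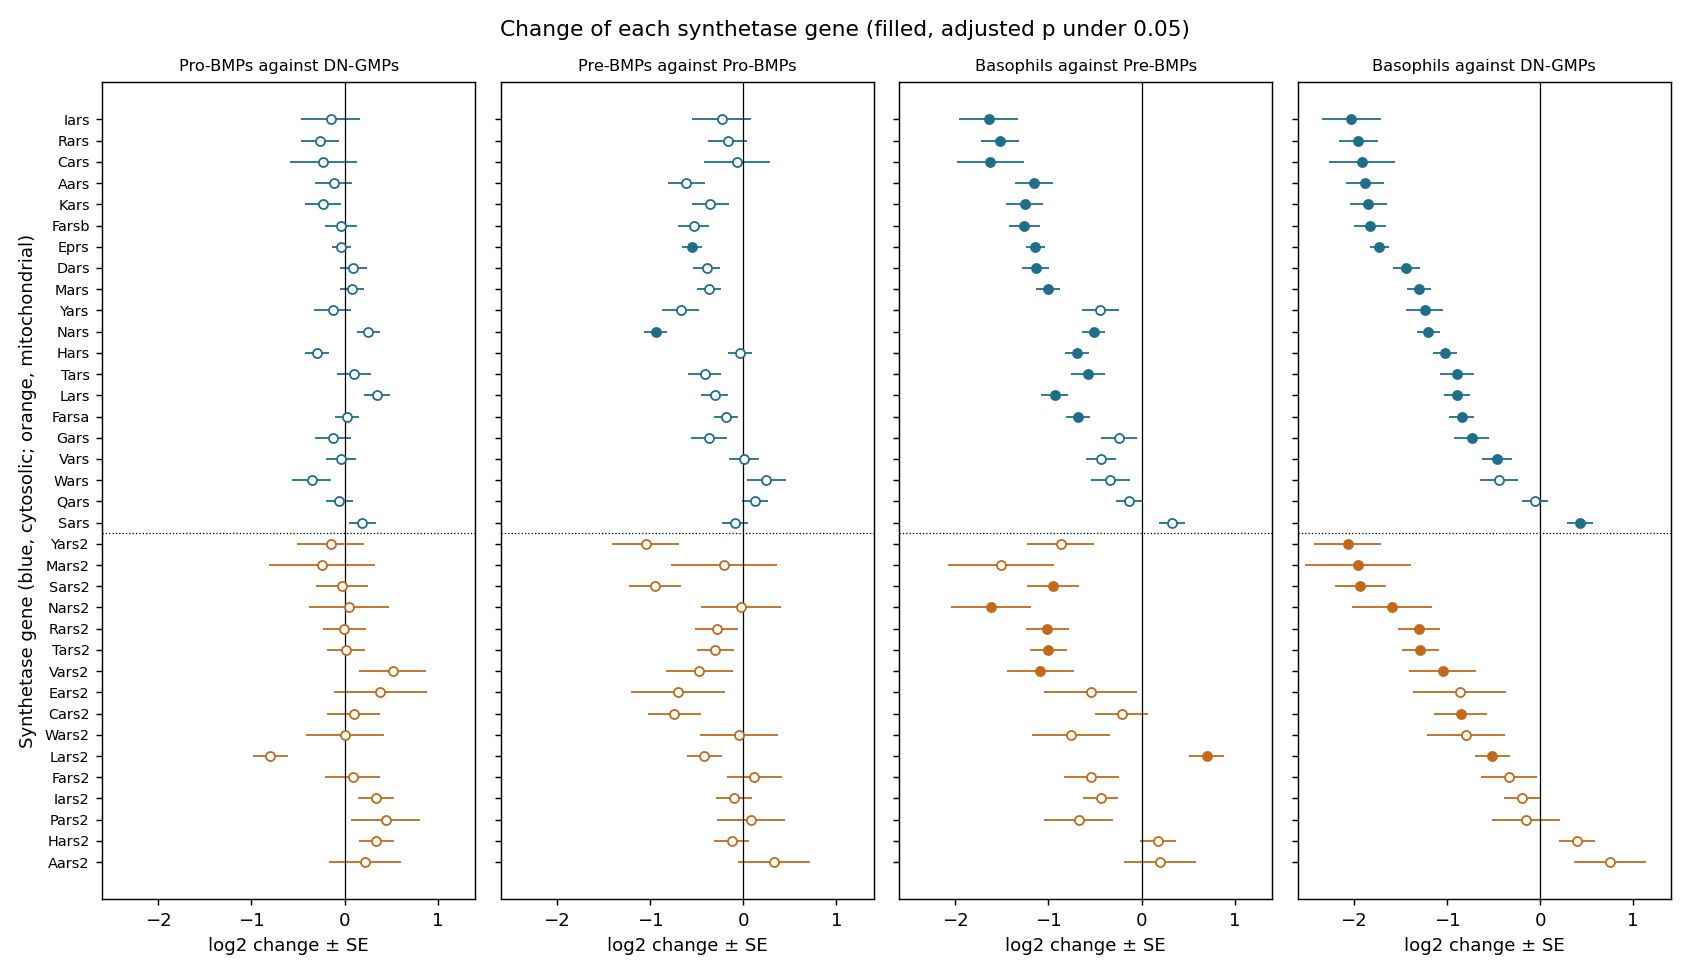
Log2 change of each synthetase gene (point) with its standard error (line) in 4 comparisons, cytosolic genes in blue above the dotted line and mitochondrial genes in orange below it; filled points passed the adjusted p threshold of 0.05. The points lie around 0 between Pro-BMPs and DN-GMPs, drift left between Pre-BMPs and Pro-BMPs with 2 filled, and lie left of 0 for 32 and 33 of 36 genes in the 2 basophil comparisons.

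Between basophils and Pre-BMPs, 19 synthetase genes fell, 14 of 20 cytosolic and 5 of 16 mitochondrial, where 16.5% of all genes were called lower. A single gene, Lars2, rose, where 13.9% of all genes were called higher. The median log2 change was -0.81 for the cytosolic and -0.72 for the mitochondrial genes, against -0.10 over all genes. Iars, the isoleucine enzyme, had 32.9, 92.2 and 37.1 CPM in basophils and 147, 139 and 168 CPM in Pre-BMPs. Basophil replicate 2 stood well above the other 2 basophil libraries, yet all 3 lay below Pre-BMPs (3.12-fold lower, adjusted p = 0.0023). Cars, the cysteine enzyme, showed the same spread among basophils, with 8.63, 28.9 and 14.1 CPM there and 48.1, 40.6 and 52.9 CPM in Pre-BMPs (3.08-fold lower, adjusted p = 0.00502). Nars2, the mitochondrial enzyme for asparagine, had 4.74, 6.802 and 14.7 CPM in basophils and 17.2, 33.4 and 23.9 CPM in Pre-BMPs (3.06-fold lower, adjusted p = 0.0145). Its highest basophil library came close to its lowest Pre-BMP library, and the call was lost without Pre-BMP replicate 2 (adjusted p = 0.0625) or basophil replicate 1 (0.0563). The other cytosolic genes called lower were Aars, Dars, Eprs, Farsa, Farsb, Hars, Kars, Lars, Mars, Nars, Rars and Tars, with log2 changes from -1.52 for Rars to -0.52 for Nars, and the other mitochondrial genes were Rars2, Sars2, Tars2 and Vars2, with changes of -1.01, -0.95, -1.001 and -1.09. Of these, Tars lost its call without any 1 of Pre-BMP replicates 1 and 2 and basophil replicates 1, 2 and 3 (adjusted p up to 0.127), Sars2 without Pre-BMP replicate 1 or basophil replicate 3 (up to 0.092), and Vars2 without 7 of the 12 libraries, Pre-BMP replicate 2, basophil replicate 3 and the 3 DN-GMP libraries being those it did not need (up to 0.145).

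Lars2 was the exception in direction. It had 547, 471 and 699 CPM in basophils and 321, 330.1 and 398 CPM in Pre-BMPs, with no overlap, and rose by 0.70 ± 0.19 on the log2 scale (SE, adjusted p = 0.0161). The call was lost without Pre-BMP replicate 1 (adjusted p = 0.0574), Pre-BMP replicate 2 (0.0540) or basophil replicate 3 (0.0624). It was also lost after quantile normalization (log2 change 0.24, adjusted p = 0.376) and in CPM of the total reads on listed genes (0.38, adjusted p = 0.157), a scaling that moved the median of all genes in this comparison by -0.32 and raised the count of synthetase genes called lower to 29. Under the deposited scaling, mean Lars2 was highest in DN-GMPs, next in basophils, and lowest in Pre-BMPs. In Pre-BMPs the sum of the other mitochondrial genes stood at 543 ± 34.8 CPM. Basophils were not tested against Pro-BMPs, and their Lars2 libraries overlapped, with 471 CPM in basophil replicate 2 and 495 CPM in Pro-BMP replicate 2.

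Over the whole path, from DN-GMPs to basophils, 26 of 36 synthetase genes fell, 17 of 20 cytosolic and 9 of 16 mitochondrial, where 23.2% of all genes were called lower. The serine enzyme Sars rose, where again 23.2% of all genes were called higher. Changes were below 0 for 33 of 36 genes and below -1 for 19, and the median was -1.22 for cytosolic and -0.86 for mitochondrial genes, against -0.0088 over all genes. This comparison shares its basophil libraries with the one against Pre-BMPs, so the 2 sets of values are not independent. When the 2 populations alone were fitted, 22 were called lower.

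All but 1 of the 8 enzymes of the multisynthetase complex fell over this path. Iars had 32.9, 92.2 and 37.1 CPM in basophils and 167, 239 and 191 CPM in DN-GMPs, a 4.07-fold fall (log2 change -2.03 ± 0.32, SE, adjusted p = 0.000303). Rars, the arginine enzyme, had 25.9, 34.1 and 38.5 CPM in basophils and 136, 121 and 119.8 CPM in DN-GMPs (3.87-fold lower, adjusted p = 1.68e-05). In both genes every basophil library lay below every DN-GMP library, and the basophil libraries of Iars spread further than those of Rars. The lysine enzyme Kars was 3.59-fold, Eprs 3.304-fold, the aspartate enzyme Dars 2.705-fold, the methionine enzyme Mars 2.47-fold and the leucine enzyme Lars 1.86-fold lower in basophils. Eprs had close values in basophils, with 93.4, 93.7 and 87.2 CPM in basophils and 271, 302 and 337 CPM in DN-GMPs. The glutamine enzyme Qars was the member that did not pass, at 78.96, 82.8 and 77.1 CPM in basophils and 73.5, 94.5 and 82.1 CPM in DN-GMPs (log2 change -0.06 ± 0.14, SE). Its 12 libraries lay between 67.4 and 94.5 CPM, and its F-test over the 4 populations had an adjusted p of 0.796.

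Of the 12 cytosolic genes outside the complex, 10 fell. Among them the alanine enzyme Aars was 3.68-fold, Cars 3.77-fold, the phenylalanine enzyme's subunit Farsb 3.55-fold, the tyrosine enzyme Yars 2.36-fold, Nars 2.299-fold and the histidine enzyme Hars 2.03-fold lower in basophils. Farsb and Farsa make the subunits of the same phenylalanine enzyme and fell by unequal amounts, Farsb to 47.6 ± 12.2 CPM in basophils, against 166 ± 11.3 CPM in DN-GMPs, and Farsa to 114 ± 5.36 CPM in basophils, against 206 ± 30.2 CPM in DN-GMPs (mean ± SD, n = 3). The threonine enzyme Tars, the glycine enzyme Gars and the valine enzyme Vars were 1.86-fold, 1.66-fold and 1.38-fold lower. The call for Vars (adjusted p = 0.0324) was lost without DN-GMP replicate 2, basophil replicate 1 or basophil replicate 2 (adjusted p up to 0.123). The tryptophan enzyme Wars did not pass, at 79.99 ± 11.5 CPM in basophils and 109.7 ± 24.7 CPM in DN-GMPs (adjusted p = 0.102).

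Sars went the other way, with 109, 142 and 131 CPM in basophils and 78.3, 113 and 94.2 CPM in DN-GMPs. The lowest basophil library lay below the highest DN-GMP library, so the groups overlapped, and the log2 change was 0.43 ± 0.14 (SE, adjusted p = 0.0286). The call was lost without DN-GMP replicate 1 (adjusted p = 0.109), DN-GMP replicate 3 (0.0615), basophil replicate 2 (0.102) or basophil replicate 3 (0.0733). Quantile normalization left a log2 change of 0.27 (adjusted p = 0.145) and CPM of total reads 0.17 (adjusted p = 0.358), so that Sars was above 0 under every scaling run but called under the deposited scaling only.

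**Figure D3:**
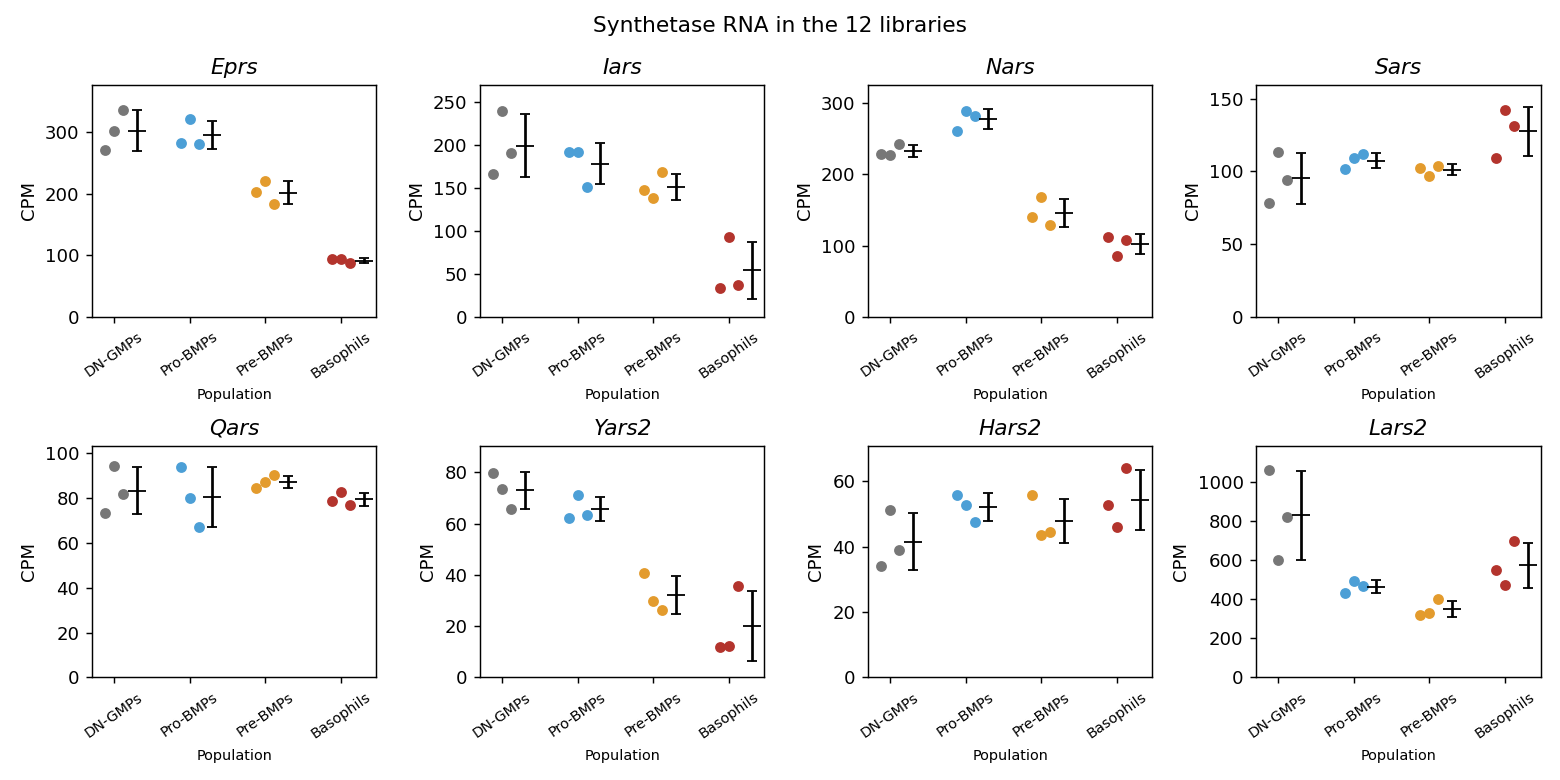
CPM of 8 synthetase genes in each library (points) with the mean and SD of each population (black), on axes that start at 0. By mean, Eprs, Iars, Nars and Yars2 are lowest in basophils, Sars is highest in basophils, and Lars2 is lowest in Pre-BMPs. Libraries of Qars and Hars2 overlap across populations, and basophil libraries of Sars overlap those of DN-GMPs and Pro-BMPs. Basophil replicate 3 of Yars2 lies within the Pre-BMP range.

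Among the mitochondrial genes, Yars2, the tyrosine enzyme, fell about as far as Iars. It had 11.8, 12.3 and 35.8 CPM in basophils and 79.7, 73.6 and 65.5 CPM in DN-GMPs, a 4.19-fold fall (log2 change -2.07 ± 0.36, SE, adjusted p = 0.000636). Basophil replicate 3 stood within the Pre-BMP range (40.6, 29.8 and 26.4 CPM) and the other 2 basophil libraries below it. Sars2, the mitochondrial serine enzyme, had 10.8, 10.1 and 9.02 CPM in basophils and 35.5, 47.8 and 32.1 CPM in DN-GMPs (3.805-fold lower, adjusted p = 0.000165), with tight basophil libraries and no overlap. Mars2, for methionine, had 8.44, 11.2 and 2.61 CPM in basophils and 16.4, 35.1 and 25.1 CPM in DN-GMPs (3.87-fold lower, adjusted p = 0.0148). It was among the least abundant genes of the set, and its call was lost without DN-GMP replicate 2 (adjusted p = 0.0550) or basophil replicate 3 (0.0506).

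The other mitochondrial genes called lower were Nars2, Rars2 (arginine), Tars2 (threonine), Vars2 (valine), Cars2 (cysteine) and Lars2. Their folds were 3.003, 2.46, 2.44, 2.06, 1.81 and 1.43 lower in basophils. Basophil and DN-GMP libraries overlapped for Vars2 and Lars2 and did not for the others. The calls for Cars2, Vars2 and Lars2 (adjusted p = 0.0286, 0.0333 and 0.0442) depended on single libraries. Cars2 lost its call without DN-GMP replicate 1 or 2 or basophil replicate 1 (adjusted p up to 0.0913), Vars2 without DN-GMP replicate 1 or 2 or basophil replicate 1 or 2 (up to 0.126), and Lars2 without any 1 of 9 libraries, DN-GMP replicate 2, Pre-BMP replicate 3 and basophil replicate 3 being those it did not need (up to 0.172).

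The 7 mitochondrial genes that were not called between basophils and DN-GMPs had changes on both sides of 0. Aars2, the alanine enzyme, had 58.1, 55.1 and 37.6 CPM in basophils and 15.3, 39.6 and 41.8 CPM in DN-GMPs, where DN-GMP replicate 1 was low and the groups overlapped (log2 change 0.75 ± 0.39, SE, adjusted p = 0.135). Hars2, the histidine enzyme, had 52.7, 46.1 and 64.05 CPM in basophils and 34.2, 51.3 and 39.1 CPM in DN-GMPs, also overlapping (log2 change 0.39 ± 0.19, adjusted p = 0.113). Without DN-GMP replicate 2, Hars2 was called higher (log2 change 0.56, adjusted p = 0.0365). Iars2 (isoleucine), Pars2 (proline), Fars2 (phenylalanine), Wars2 (tryptophan) and Ears2 (glutamate) had log2 changes of -0.20, -0.16, -0.33, -0.80 and -0.86. Standard errors of these genes reached 0.501 for Ears2, and a fall of the size called in Lars2 was not detectable in Ears2 at this spread.

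Levels of different genes were compared per kilobase of the longest principal transcript in GENCODE M21. Cytosolic synthetase genes had a median of 59.8 CPM per kb in DN-GMPs, 49.7 in Pro-BMPs, 42.8 in Pre-BMPs, with 24.4 in basophils. Mitochondrial genes had a median of 12.6 CPM per kb in DN-GMPs, 15.99 in Pro-BMPs, 13.8 in Pre-BMPs, with 12.1 in basophils, so the gap between the medians of the compartments was narrowest in basophils. The genes in the middle of the mitochondrial order differed between DN-GMPs and basophils. Gene by gene, 14 of 16 mitochondrial genes had changes below 0 between these 2 populations, with a median log2 change of -0.86. Lars2 was the highest of all 36 in DN-GMPs (213 ± 58.7 CPM per kb) and in basophils (147 ± 29.7 CPM per kb), and was ranked 2 in Pro-BMPs and 3 in Pre-BMPs. Dars ranked 2 in DN-GMPs with 116 ± 17.2 CPM per kb, 1 in Pro-BMPs with 123 ± 2.81, 2 in Pre-BMPs with 94.7 ± 16.4 and 6 in basophils with 42.8 ± 4.55. Farsa ranked 3, 3, 1 and 2 along the 4 populations, with 62.4 ± 2.94 CPM per kb in basophils. In Pre-BMPs the order was Farsa, Dars and Lars2, and neighbours in it differed by less than their SDs. Sars ranked 8 in basophils and 21 in DN-GMPs, and Iars ranked 26 in basophils and 15 in DN-GMPs. Mars2 and Wars2 held the lowest 2 ranks in every population. A mean per kb depends on which transcript is used, and the deposited values do not tell transcripts apart.

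The ratio of a cytosolic gene to the mitochondrial gene for the same amino acid was taken within each library, where the scaling of the library cancels. Such a ratio was formed for 13 amino acids, and its differences among the 4 populations were tested with an exact permutation test over the 369600 arrangements of the libraries, two-sided, with Benjamini-Hochberg adjustment over the 13 ratios. Each p-value given below with a ratio is for the 4 populations together. The difference between basophils and DN-GMPs printed beside it was not tested by itself. The ratios and this test were chosen after the data were seen. Of the 13, 6 had an adjusted p under 0.05. In 5 of these the ratio was lower in basophils than in DN-GMPs, and in 1 it was higher.

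Aars over Aars2 had log2 ratios of 3.03, 1.69 and 1.53 in DN-GMPs, 1.04, 2.16 and 2.03 in Pro-BMPs, 0.47, 0.80 and 1.14 in Pre-BMPs, with -1.18, -0.17 and -0.29 in basophils. The mitochondrial gene thus had more reads than the cytosolic one in every basophil library and fewer in every other library, and the basophil mean lay -2.63 from the DN-GMP mean on the log2 scale (exact p = 0.00208, adjusted p = 0.00675). Iars over Iars2 stood at 1.39, 1.70 and 1.38 in DN-GMPs, 1.26, 0.81 and 0.93 in Pro-BMPs, 0.74, 0.87 and 0.98 in Pre-BMPs, with -0.47, 0.38 and -0.93 in basophils (difference of basophils and DN-GMPs -1.83, exact p = 0.000325, adjusted p = 0.00295). Basophil replicate 2 was the only basophil library with more Iars than Iars2 reads. Hars over Hars2 differed by -1.41 (exact p = 0.00175, adjusted p = 0.00675) and Cars over Cars2 by -1.06 (exact p = 0.00701, adjusted p = 0.0152). In both, no basophil library reached a DN-GMP library.

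Sars over Sars2 moved the other way. Its log2 ratios were 1.14, 1.24 and 1.55 in DN-GMPs, 1.54, 1.90 and 1.16 in Pro-BMPs, 1.94, 2.68 and 2.55 in Pre-BMPs, with 3.34, 3.81 and 3.86 in basophils, a difference of 2.36 between basophils and DN-GMPs (exact p = 0.000455, adjusted p = 0.00295). The basophil libraries lay above all 9 others. Lars over Lars2 followed the course of Lars2, with -3.40, -2.499 and -2.93 in DN-GMPs, -1.66, -1.97 and -1.76 in Pro-BMPs, -1.45, -1.52 and -2.10 in Pre-BMPs, with -3.04, -3.02 and -3.90 in basophils (exact p = 0.00305, adjusted p = 0.00794). Basophils and DN-GMPs overlapped in this ratio, and the Pro-BMP and Pre-BMP libraries lay above both. Each of these 6 ratios kept an adjusted p under 0.05 with any 1 of the 12 libraries left out, the highest being 0.0476 for Cars over Cars2. The 7 ratios for arginine, tryptophan, asparagine, threonine, valine, methionine and tyrosine had adjusted p from 0.059 for Vars over Vars2 to 0.796 for Mars over Mars2. Over all 13, the median difference of basophils and DN-GMPs was 0.36 on the log2 scale and 6 were below 0, so the ratio did not move in a common direction over the set.

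**Figure D4:**
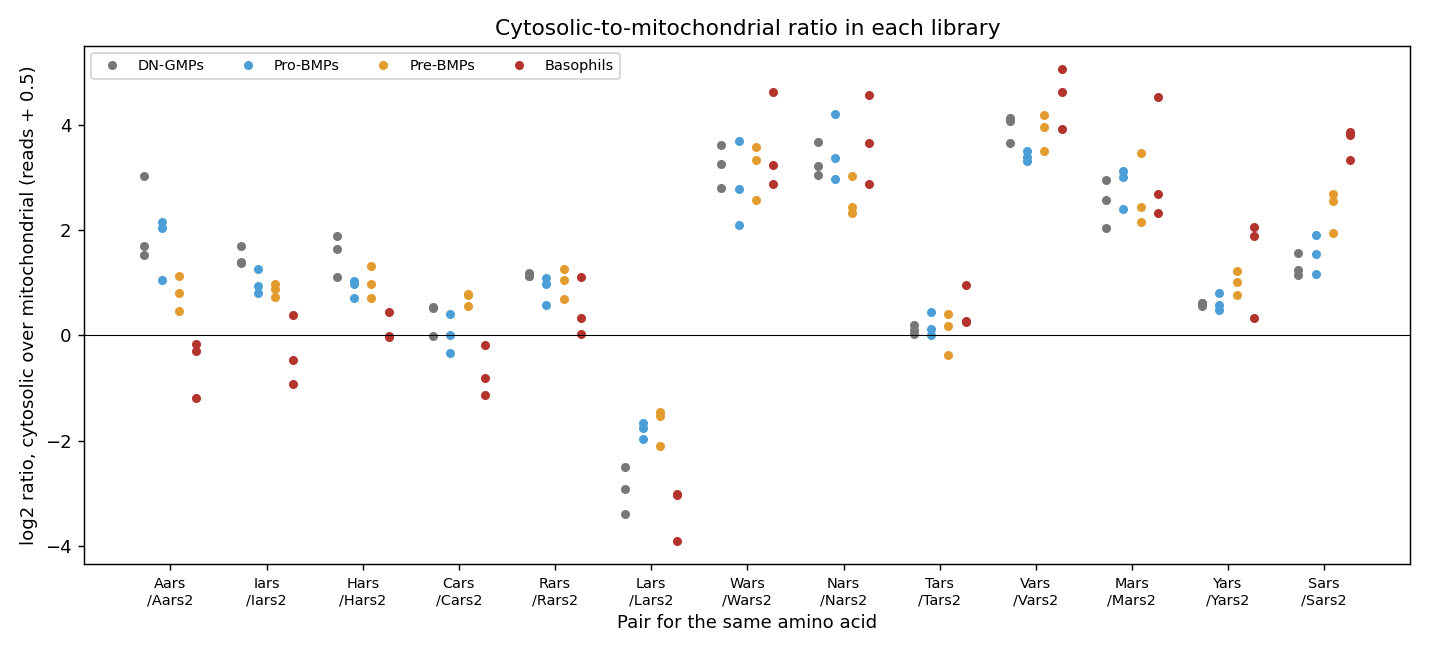
Log2 ratio of the cytosolic to the mitochondrial gene for 13 amino acids, with 1 point per library and colours for the 4 populations; 0 marks equal reads. Basophil points (red) lie lowest for Aars/Aars2, Iars/Iars2 and Hars/Hars2 and highest for Sars/Sars2, and for Cars/Cars2 they lie below the DN-GMP points.

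Some of these genes share bases with a gene on the other strand, and the library kits do not mark strand. Reads classed as ambiguous between genes, 3.63% to 4.14% of a library, were not counted for any gene. How many of them came from the exons below is not given. In GENCODE M21, exons of 13 of the 36 overlap an exon on the opposite strand. The overlap covers 24.2% of the exon bases of Iars2, 15.1% of those of Aars (counting those shared with Exosc6 on the same strand) and 10.7% of those of Fars2, and less than 10% in the other 10. Hars and Hars2 lie head to head on chromosome 18 with start sites 197 bases apart and share 195 exon bases, 7.97% of the exon bases of Hars and 4.56% of those of Hars2. Hars fell to 59.1 ± 6.71 CPM in basophils, against 119.6 ± 7.96 CPM in DN-GMPs, while Hars2 had 54.3 ± 9.06 CPM in basophils and 41.5 ± 8.84 CPM in DN-GMPs (mean ± SD, n = 3).

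Other parts of the charging machinery were read from lists of related genes, with the synthetase genes themselves left out. All 3 scaffold genes of the multisynthetase complex fell between basophils and DN-GMPs: Eef1e1 to 18.3, 11.7 and 23.9 CPM in basophils, against 56.4, 58.03 and 61.05 CPM in DN-GMPs (adjusted p = 9.82e-05), Aimp2 with a log2 change of -1.63 and Aimp1 with one of -1.30. Eef1e1 also fell between Pre-BMPs and Pro-BMPs (log2 change -0.87, adjusted p = 0.0411). Of 10 synthetase-related genes, 8 fell and 0 rose between basophils and DN-GMPs, where 23.2% of all genes were called in each direction. They included Tarsl2, a second threonyl-tRNA synthetase gene (2.54, 3.31 and 2.21 CPM in basophils and 10.6, 7.93 and 11.9 CPM in DN-GMPs), and the proofreading deacylases Dtd1 (log2 change -1.81) and Dtd2 (-1.72). Qrsl1, a subunit of the mitochondrial amidotransferase that works after Ears2, also fell between basophils and Pre-BMPs (log2 change -1.36).

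The 5 cytosolic elongation factor genes also fell between basophils and DN-GMPs. Eef1g had 71.8, 91.1 and 79.9 CPM in basophils and 406, 343 and 369.8 CPM in DN-GMPs (log2 change -2.21, adjusted p = 3.05e-07), and Eef1b2 and Eef1d, which like Eef1g belong to the exchange factor of the tRNA carrier, changed by -1.11 and -1.11. Of 4 mitochondrial elongation factor genes, Tufm (-1.61) and Tsfm (-1.42) fell and the other 2 did not pass. Among 20 genes of tRNA maturation and export, 13 fell and 1 rose, against 23.2% of all genes called lower and 23.2% higher. The steepest falls were those of Rpp38, Rpp40 and Pop1, subunits of ribonuclease P, which trims the 5′ end of tRNA, with Rpp40 at 6.66, 2.78 and 1.34 CPM in basophils and 23.7, 29.7 and 28.9 CPM in DN-GMPs. The gene that rose, Rpp21, is also a ribonuclease P subunit, named here after its value was seen (51.7, 61.3 and 69.9 CPM in basophils and 32.8, 36.3 and 38.1 CPM in DN-GMPs).

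The amino acid response genes moved in both directions. Of the 23 listed, 20 were measured, and between basophils and DN-GMPs 9 rose and 6 fell, with a median log2 change of 0.34. Over all genes 23.2% were called higher and 23.2% lower, and the 6 of 20 that fell are close to that share. Chac1, a glutathione-degrading enzyme induced through ATF4, had 39.7, 28.9 and 25.5 CPM in basophils and 0, 4.67 and 0 CPM in DN-GMPs, where 2 libraries were at 0. Ddit4, an inhibitor of mTORC1 signalling, had 6.13, 6.57 and 4.13 CPM in basophils and 0.212, 0.124 and 0.621 CPM in DN-GMPs (adjusted p = 0.000298). Asns, which makes asparagine, had 0, 6.201 and 7.03 CPM in basophils and 21.4, 51.1 and 63.6 CPM in DN-GMPs, with basophil replicate 1 at 0 (adjusted p = 0.0268). The other genes that rose were the transcription factor genes Ddit3, Cebpb and Cebpg, the amino acid transporter genes Slc3a2, Slc38a2 and Slc1a5, and Sesn2. The other genes that fell were Phgdh, Psat1 and Psph, the enzymes of serine synthesis, with Shmt2, which turns serine to glycine in mitochondria, and Eif2ak4.

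Atf4 RNA itself, named after its values were seen, had 119, 117 and 93.2 CPM in DN-GMPs, 145, 155 and 137 in Pro-BMPs, 101, 81.1 and 93.4 in Pre-BMPs, with 129, 122 and 117 in basophils. It fell between Pre-BMPs and Pro-BMPs (log2 change -0.67, adjusted p = 0.00625), rose between basophils and Pre-BMPs (0.43, adjusted p = 0.0218) and did not pass between basophils and DN-GMPs (0.17, adjusted p = 0.277). Between Pre-BMPs and Pro-BMPs, where 4.8% of all genes were called higher and 4.69% lower, 3 genes of this list rose and 6 fell, among them Slc7a11, a chain of the cystine transporter (0.0813, 0.249 and 0.134 CPM in Pre-BMPs and 3.27, 2.37 and 1.69 CPM in Pro-BMPs), and Mthfd2, of mitochondrial folate metabolism (-1.04). Ddit3 rose at the same step (25.9, 24.2 and 21.9 CPM in Pre-BMPs and 10.7, 10.3 and 8.59 CPM in Pro-BMPs). Ddit3 overlaps the opposite strand of Mars by 68 exon bases, 1.99% of the exon bases of Mars. Between basophils and Pre-BMPs, 9 rose and 3 fell, against 13.9% and 16.5% of all genes, with the largest changes in Chac1, Ddit4 and Sesn2. The 5 synthetase genes with TGATGNAA in their promoters were 4.07-fold (Iars), 3.68-fold (Aars), 2.36-fold (Yars), 1.86-fold (Tars) and 1.66-fold (Gars) lower in basophils than in DN-GMPs. Cytosolic genes whose matched promoter held CACGTG or CCGGAAG but no TGATGNAA were Kars (3.59-fold lower), Farsb (3.55-fold lower), Farsa (1.79-fold lower) and Sars (called higher). The other matched cytosolic genes without TGATGNAA are not listed here, so these are only part of that group. A link between the motif and the change in RNA was not tested.

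**Figure D5:**
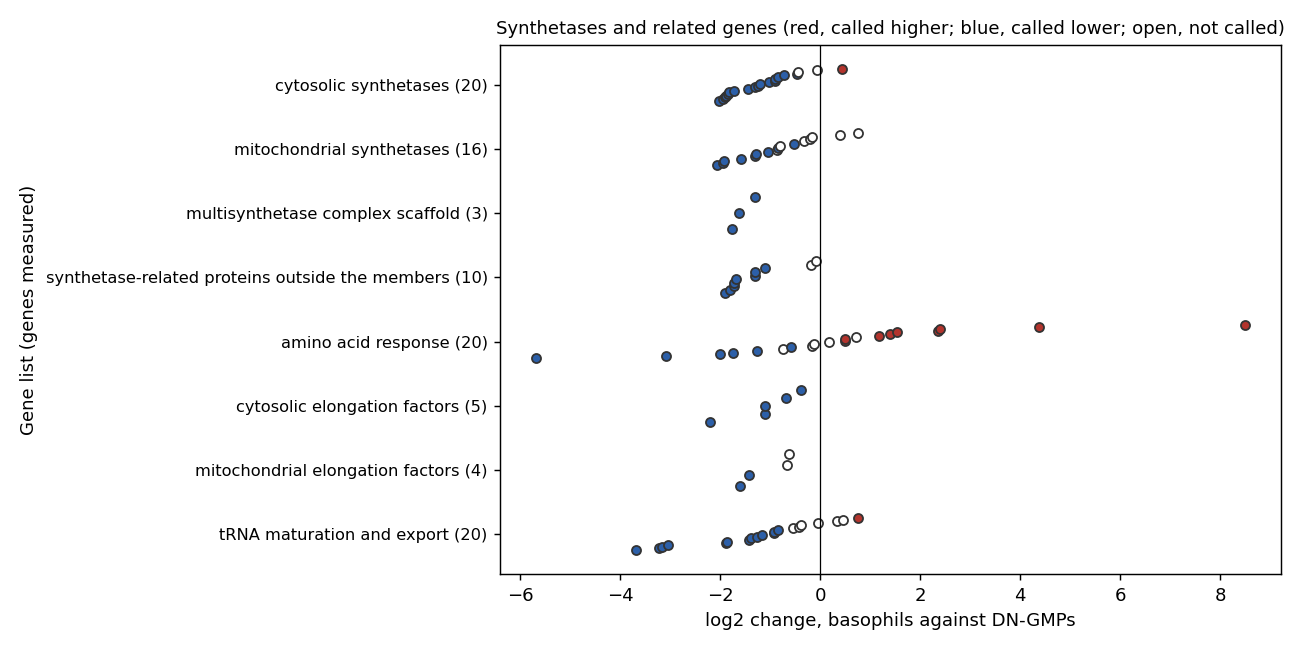
Log2 change between basophils and DN-GMPs for each gene (point) of the cytosolic and mitochondrial synthetases and 6 lists of related genes; red points were called higher, blue points lower and open points were not called. Points of most lists lie left of 0, while the amino acid response genes run from Asns on the far left to Chac1 on the far right.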

How the data were processed

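RNA of 12 libraries (3 for each of 4 populations) was sequenced. As the labels' protocols tell, a double sort collected the cells in TRIzol, and SmartSeq v4 with Nextera XT, neither of which marks strand, gave the libraries. Tools in the submitters' processing notes were Trimmomatic, STAR, deepTools and HTSeq, and the genome build is not given in the sources used here. The authors deposited log2 values of reads plus 0.5 per 1000000 of a scaled library size; the reads behind them were within 0.001 of whole numbers for 100% of values, which also gives CPM without the added 0.5 read.

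The design, written for linear values, would have added 1 before the logarithm. The deposited log2 values were instead tested as they stand with limma (version 3.58.1, R 4.3.3): 1 mean per population over all 12 libraries, no block, a mean-variance trend, two-sided tests, and Benjamini-Hochberg adjusted p under 0.05 over 14560 genes. Reads assigned to no gene were left out. The filter of 10 scaled reads in 3 libraries removed 0 genes. A log2 change is the difference between 2 means on the deposited scale. The fit was tested on simulated data.

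The synthetase genes, the lists and the alternatives were chosen with earlier results of these data known. Library values are given for up to 3 called genes with the largest change per direction in each step, up to 5 over the whole path, and each call against the majority; of related lists, up to 3 called genes are named. Lengths and overlaps came from GENCODE M21 (14515 of 14560 IDs matched). Alternatives were quantile normalization, CPM of total reads, 5 reads added, voom, a 10 CPM filter, no filter, the compared populations alone, the replicate number as a block, and leaving out each library.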

Additional observations from a re-analysis of the deposited data

How the results depend on the processing

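Across 20 alternatives no call of a synthetase gene reversed, and the median change of the set between basophils and DN-GMPs stayed between -0.999 and -1.29. Called lower in basophils than in DN-GMPs were 22 to 26 genes with 1 library left out, and lower than in Pre-BMPs 16 to 20. Leaving out a library gave 0 to 2 genes higher in basophils than in DN-GMPs, 0 to 1 higher than in Pre-BMPs, 2 to 5 lower in Pre-BMPs than in Pro-BMPs, and 0 to 1 lower in Pro-BMPs than in DN-GMPs. Quantile normalization and CPM of total reads each left 0 genes higher in either basophil comparison, and CPM of total reads gave 29 lower than in Pre-BMPs. That scaling moved the median of all genes by -0.32 there and by -0.26 between basophils and DN-GMPs. Fitting the compared populations alone gave 0 higher in basophils than in DN-GMPs, where voom and the 10 CPM filter each gave 1. Each of these settings gave 7 lower in Pre-BMPs than in Pro-BMPs. Adding 5 reads or the 10 CPM filter called 1 gene, Lars2, lower in Pro-BMPs than in DN-GMPs. The cause of these shifts was not tested.

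With the replicate number as a block, 24 genes were called lower in basophils than in DN-GMPs and 19 lower than in Pre-BMPs. Vars2 lost its call in both comparisons (adjusted p = 0.0529 and 0.0632) and Vars in the first (0.0554), while Yars between Pre-BMPs and Pro-BMPs (0.0388) and Fars2 between basophils and Pre-BMPs (0.0418) gained one. The labels do not tie a number to a mouse, and deviations of same-numbered libraries correlated between -0.12 and 0.13 over 18 pairs, as did those of libraries with other numbers (-0.11 to 0.13, 36 pairs).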
